A study of Mus musculus with 2 samples.

Results

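The genes described here encode the subunits of the mitochondrial respiratory chain and of the ATP synthase, together with named assembly factors. They were chosen by symbol alone: mitochondrially encoded genes beginning with mt-Nd, mt-Co, mt-Cytb or mt-Atp, and nuclear genes beginning with Nduf, Sdha, Sdhb, Sdhc, Sdhd, Uqcr, Cox4, Cox5, Cox6, Cox7, Cox8 or Atp5, without symbols ending in -ps. Of the 32285 genes in the files 110 met this rule, 13 of them encoded in mitochondrial DNA and 97 in the nucleus. The nuclear genes comprised 36 of complex I, 4 of complex II, 8 of complex III, 20 of complex IV, 17 of complex V and 12 assembly factors. The mitochondrial genes comprised 7 of complex I, 1 of complex III, 3 of complex IV and 2 of complex V.

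The study profiled spleen NK cells, obtained from mice by flow cytometry, with droplet-based single-cell 3′ RNA sequencing. One library came from mice under dietary restriction (DR) and the other from control mice, which the labels call normal. The labels used here give no strain, sex, age, length or degree of restriction, number of mice, pooling or sorting gate. Each group is a single library, so nothing could be tested, and every difference is one between these libraries with no replicate check.

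Oxidative phosphorylation passes electrons from NADH (complex I) or succinate (complex II) through complex III to oxygen at complex IV, and the proton gradient built on the way drives ATP synthesis at complex V. Complex II is built entirely from nuclear genes, whereas the other complexes combine subunits made in the cytosol with a few made inside the mitochondrion. Mitochondrial genes are copied from a small circular genome as long multi-gene RNAs that are cut into shorter messages. Nuclear genes follow transcription factors such as NRF1, GABP and YY1. Resting lymphocytes, NK cells included, obtain much of their ATP by this route.

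From the DR library came 6287 barcodes with 42134212 UMIs (unique molecular identifiers, each counting 1 captured RNA molecule), and from the control library 5702 barcodes with 44526828 UMIs. Median depth was 5782 UMIs per barcode in the DR library and 7151.5 in the control library. After filtering, 5792 DR and 5240 control cells remained, and 13 barcode sequences occurred in both libraries. NK-like cells numbered 4120 in the DR library and 4284 in the control library, and all 10 NK markers reached 20 CPM (UMIs per 1e+06 UMIs of the class) in both. There were 433 DR and 318 control ILC1-like cells, 438 DR and 122 control B-like cells, and 310 DR and 4 control T-like cells. Different clusters held most NK-like cells of each library: a cluster led by Ly6c2 held 2152 DR and 614 control cells, and a cluster led by Cx3cr1 and Klrg1 held 389 DR and 2215 control cells.

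Levels are CPM over the summed cells of a class, with exact Poisson intervals, and ratios carry exact conditional binomial intervals, both at 95% and covering counting error only. Calls rest on size alone: a gene is called past the fold when its first value is 25% or more above, or 20% or more below, the second, and its mean reaches the floor of 20 CPM. In NK-like cells 97 of the 110 genes passed this floor, namely 12 mitochondrial and 85 nuclear ones. Transcripts were counted at their 3′ ends, so levels were compared mainly between libraries and cell classes. Where different genes stand side by side, as for the genomes or for isoforms, the values compare captured UMIs and not amounts of transcript.

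Sequence bears on how the mitochondrial genes could be counted, because several of them share bases. In the GRCm38 genome (GENCODE M21 annotation) mt-Atp8 lies at chrM:7766-7969 and mt-Atp6 at chrM:7927-8607, both on the plus strand, and they share 43 bases. The mt-Atp8 coding sequence is shown whole, with the bases that also belong to mt-Atp6 in capitals.
mt-Atp8: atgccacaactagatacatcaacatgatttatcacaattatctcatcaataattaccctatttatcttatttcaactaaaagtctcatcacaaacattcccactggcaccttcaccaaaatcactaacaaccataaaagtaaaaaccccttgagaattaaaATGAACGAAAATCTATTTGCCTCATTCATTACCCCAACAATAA
Likewise mt-Nd4l and mt-Nd4 share 7 bases, mt-Nd5 and mt-Nd6 share 14 bases on opposite strands, and mt-Atp6 and mt-Co3 share 1 base. The split of UMIs is therefore uncertain between mt-Atp8 and mt-Atp6 and between mt-Nd4l and mt-Nd4, which share stretches on the same strand. The last bases of mt-Atp6, mt-Co3, mt-Nd4 and mt-Cytb are printed because the assay captures 3′ ends. Capitals mark the stop codon, which is complete in mt-Atp6 and is a lone T in the other genes, completed in the cell by the poly(A) tail.
mt-Atp6: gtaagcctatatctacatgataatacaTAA
mt-Co3: tacgtctccatttattgatgaggatctT
mt-Nd4: ccaaaactaattacaggcctgacaataT
mt-Cytb: gaagacaaaatactaaaattatatccaT
These 3 genes with an incomplete stop did not move alike. The log2 ratio of DR over control in NK-like cells was 0.68 for mt-Co3, 0.45 for mt-Cytb and 0.17 for mt-Nd4.

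Mitochondrially encoded transcripts stood higher in DR than in control NK-like cells, while the nuclear genes of the same complexes did not. The 13 mitochondrial genes together were at 24842 CPM in the DR library and 16903 CPM in the control library, which is 2.48% and 1.69% of all UMIs. The log2 ratio was 0.56 (0.55 to 0.56), a 1.47-fold difference. The 97 nuclear genes together were at 21186 CPM in the DR library and 21884 CPM in the control library, a log2 ratio of -0.047 (-0.052 to -0.042). Of the 12 mitochondrial genes past the floor 8 were higher and 0 were lower in the DR library, and of the 85 nuclear genes 0 were higher and 0 were lower. Among all 5841 genes tested in these cells 3.30% were higher and 8.13% lower, a split that became 5.29% and 4.52% under median-of-ratios scaling.

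The mitochondrial genes differed among themselves in how far the libraries stood apart. The 3 complex IV genes encode the catalytic core of cytochrome c oxidase, and all 3 were past the fold. mt-Co1, which carries the oxygen-binding site, was at 3542 CPM in DR and 2491 CPM in control NK-like cells (log2 ratio 0.51). mt-Co2, which receives electrons from cytochrome c, was at 4177 CPM in DR and 2518 CPM in control cells, with the largest ratio of the 13 genes (0.73, interval 0.72 to 0.74). mt-Co3 was at 4925 CPM in DR and 3069.8 CPM in control cells (0.68). Summed over the complex, the difference was 0.65 on the log2 scale.

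The 2 complex V genes gave different values, though the split of UMIs between these overlapping genes is uncertain. mt-Atp6, the subunit that forms the proton path of the ATP synthase, was at 4438 CPM in DR and 2742 CPM in control NK-like cells (log2 ratio 0.69, interval 0.68 to 0.71). mt-Atp8, whose sequence overlaps it, was at 51.0 CPM in DR and 43.0 CPM in control cells, a ratio of 0.25 (0.14 to 0.36) that did not reach the fold. mt-Cytb, the haem-carrying core of complex III, was at 2561 CPM in DR and 1876 CPM in control cells (0.45) and was past the fold.

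The 7 complex I genes, which build the membrane arm of the NADH dehydrogenase, showed the smallest summed difference of the 4 complexes with mitochondrial genes, 0.31 on the log2 scale. mt-Nd3 was at 489 CPM in DR and 337 CPM in control NK-like cells (0.54), mt-Nd2 at 1343 CPM in DR and 1040.1 CPM in control cells (0.37), and mt-Nd1 at 1407 CPM in DR and 1101 CPM in control cells (0.35), all past the fold. The remaining 4 were not past it. mt-Nd5 was at 297 CPM in DR and 245 CPM in control cells (0.27), mt-Nd4 at 1459 CPM in DR and 1297 CPM in control cells (0.17), and mt-Nd4l at 134 CPM in DR and 124 CPM in control cells (0.11). mt-Nd6 is the one protein gene on the other strand of the mitochondrial genome. It lay below the floor, at 18.7 CPM in DR and 19.97 CPM in control cells (log2 ratio -0.098, interval -0.27 to 0.075). In genome order, the 4 largest ratios belonged to mt-Co2, mt-Atp6, mt-Co3 and mt-Nd3, which follow one another between chrM:7013 and chrM:9806 with only mt-Atp8 among them.

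**Figure D1:**
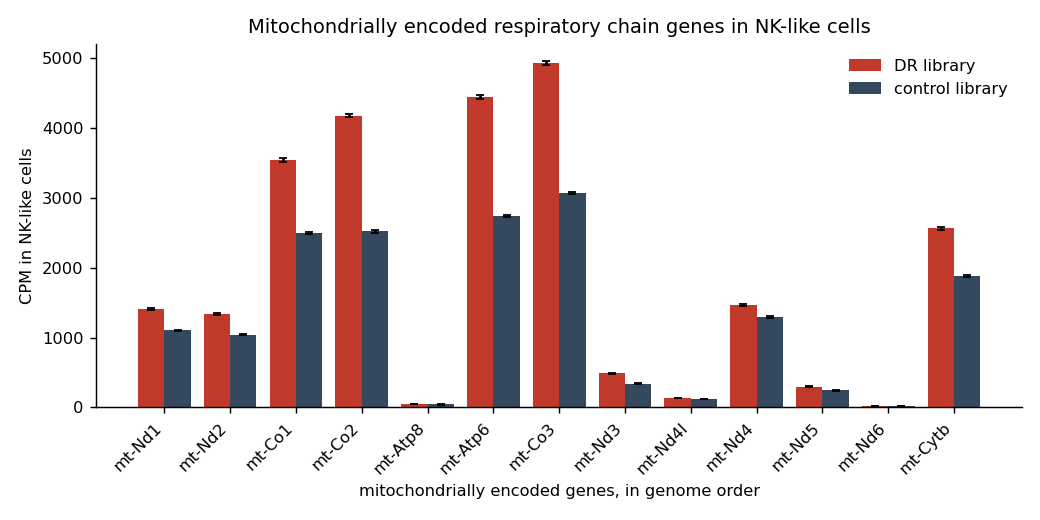
Levels of the 13 mitochondrially encoded genes in NK-like cells, in CPM, with DR (red) left of control (dark) for each gene and genes in genome order. Bars are 1 library each and whiskers are exact 95% Poisson intervals for counting error. DR bars stand above control bars for every gene but mt-Nd6, most visibly for mt-Co2 (4177 against 2518 CPM), mt-Atp6 and mt-Co3.

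Other measures were compared between the NK-like cells of the libraries, some of which differed and some not. Their part in the mitochondrial difference was not tested. Median depth of NK-like cells was 5351 UMIs in the DR library and 7107 UMIs in the control library. Cytosolic ribosomal protein genes took 21.7% of UMIs in DR and 19.4% in control NK-like cells. The 10 B cell markers summed to 853 CPM in DR and 135 CPM in control NK-like cells, 2 of 10 reaching 20 CPM in the DR library and 1 of 10 in the control library. The 10 T cell markers summed to 287 CPM in DR and 296 CPM in control cells, with Cd8b1 and Cd6 at 0 in the control library. Summed ILC1 markers were at 209.7 CPM in DR and 121 CPM in control cells, with 3 of 10 at 20 CPM in DR and 1 of 10 in control cells. Summed plasma cell markers were at 207 CPM in DR and 131 CPM in control cells, and summed erythroid markers at 6.43 CPM in DR and 3.03 CPM in control cells. Malat1, a nuclear RNA that rises in share when cytoplasmic RNA is lost, was at 30773 CPM in DR and 30518 CPM in control cells. Within the Ly6c2 cluster it was at 35033 CPM in DR and 27622.5 CPM in control cells. In the Cx3cr1 and Klrg1 cluster it was at 42609 CPM in DR and 37875 CPM in control cells. It was lower in DR in NK-like clusters of 35 DR and 95 control cells (10443.5 and 12822 CPM) and of 17 DR and 29 control cells (22091 and 22581 CPM). Neat1 was at 283 CPM in DR and 258 CPM in control NK-like cells. The filter itself used these genes, since barcodes with over 10% mitochondrial UMIs were removed, and 1.77% of DR and 0.649% of control barcodes exceeded that share.

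Per cell, the median number of mitochondrial UMIs was 129 in DR and 113.5 in control NK-like cells. The median number of UMIs from the nuclear chain genes was 113 in DR and 151 in control cells, and that of all other UMIs was 5111.5 in DR and 6835.5 in control cells. The median DR cell held more mitochondrial UMIs and fewer of the others, and more mitochondrial RNA per cell cannot be told apart from less other RNA per cell. The median cell had 2.40% mitochondrial UMIs in the DR library and 1.60% in the control library.

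The difference was present at every depth. Among NK-like cells of 6000 to 7000 UMIs, 537 in the DR and 896 in the control library, mitochondrial genes took 2.48% of UMIs in DR and 1.53% in control cells (log2 ratio 0.70). The ratio was smallest in the shallowest cells, under 3000 UMIs, at 3.06% in 143 DR cells and 2.75% in 94 control cells (0.15). In cells of 15000 UMIs or more it was 0.40, with 42 DR and 163 control cells. It was above 0 in 9 of 9 depth bins and in 6 of 6 NK-like clusters, where it ranged from 0.46 to 0.64. The nuclear genes' ratio lay between -0.051 and 0.12 over the same bins and between -0.11 and 0.0035 over the same clusters.

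**Figure D2:**
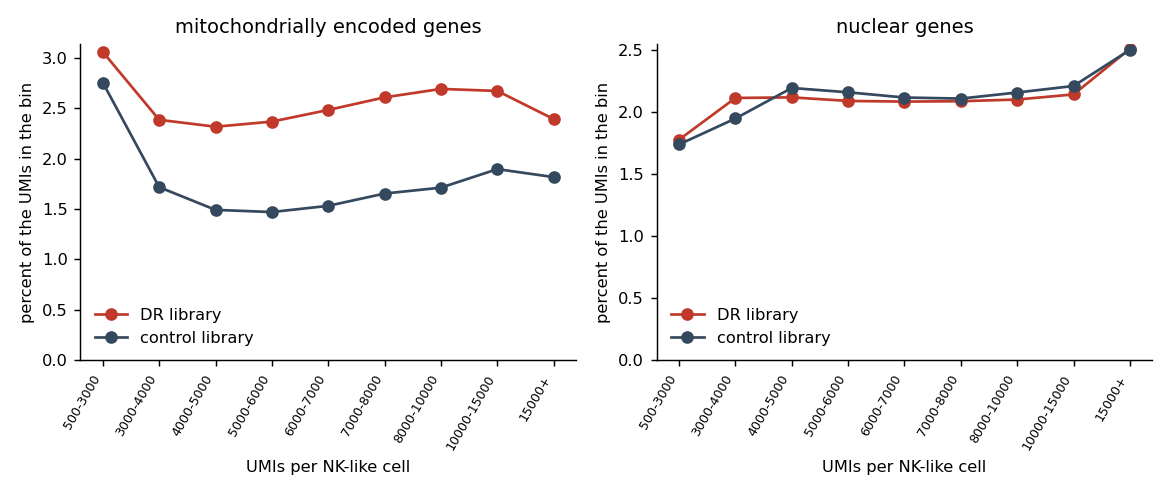
Share of UMIs from mitochondrially encoded genes (left) and from nuclear respiratory chain genes (right) in NK-like cells, in percent, against the cell's total UMIs in 9 bins; DR is red and control is dark, each point summing the cells of 1 library. The mitochondrial share is higher in DR at each depth, least so under 3000 UMIs (3.06% against 2.75%), while the nuclear lines nearly coincide.

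The ratio between the genomes changed accordingly within each mixed complex. For complex IV, mitochondrial UMIs outnumbered nuclear ones 2.07 to 1 in DR and 1.26 to 1 in control NK-like cells. For complex V the ratio of mitochondrial to nuclear UMIs was 0.685 in DR and 0.410 in control cells, for complex III 1.43 in DR and 1.01 in control cells, and for complex I 0.864 in DR and 0.687 in control cells.

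Nuclear genes kept within the fold in every complex. Summed log2 ratios of DR over control in NK-like cells were -0.025 for complex I, -0.028 for complex II, -0.059 for complex III, -0.065 for complex IV, -0.049 for complex V and -0.007 for the assembly factors. Of the 85 genes past the floor 24 lay above 0 and 61 below, with a median of -0.036, against a median of -0.062 over all genes tested. The sums turned above 0 in total under other scalings, to 0.011 when CPM left out mitochondrial and ribosomal protein genes and 0.016 under median-of-ratios scaling.

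In complex I, Ndufa13, Ndufb7 and Ndufb11, accessory subunits of the enzyme, illustrate the flat pattern. Ndufa13 was at 410 CPM in DR and 423 CPM in control NK-like cells, Ndufb7 at 317 CPM in DR and 330 CPM in control cells, and Ndufb11 at 329 CPM in DR and 309 CPM in control cells. The accessory subunit gene Ndufa3 had the most negative ratio of all nuclear genes past the floor, 269 CPM in DR and 332 CPM in control cells (log2 ratio -0.30, interval -0.35 to -0.26), just short of the limit. Ndufa1, another accessory subunit, was at 223 CPM in DR and 252 CPM in control cells (-0.18). Ndufv1, the subunit that binds NADH, was at 50.3 CPM in DR and 45.1 CPM in control cells (0.16).

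Complex II, succinate dehydrogenase, also works in the citric acid cycle, and its subunits leaned in different directions. Sdha, the flavoprotein that oxidises succinate, was at 112 CPM in DR and 102 CPM in control NK-like cells (log2 ratio 0.14). Sdhb, the iron-sulfur subunit next to it, was at 144 CPM in DR and 164 CPM in control cells (-0.19, interval -0.25 to -0.13). The membrane anchors Sdhc and Sdhd gave 0.085 and -0.011.

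In complex III, Uqcrh, the hinge protein that contacts cytochrome c1, was at 615 CPM in DR and 618 CPM in control NK-like cells. Uqcrb was at 251 CPM in DR and 285 CPM in control cells (log2 ratio -0.18), Uqcrq at 225 CPM in DR and 242 CPM in control cells (-0.11), and the core subunit Uqcrc1 at 92.9 CPM in DR and 99.3 CPM in control cells (-0.095). None of these reached the fold.

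Complex IV genes come as families whose members are used in different tissues, and NK-like cells carried the widely expressed form of each. Cox4i1 was at 822 CPM in DR and 817 CPM in control NK-like cells, whereas Cox4i2, known from lung, had 1 UMI in DR and 2 UMIs in control cells. Cox8a was at 1044 CPM in DR and 1056 CPM in control cells, and Cox8b and Cox8c, the forms known from muscle and testis, had no UMI in any barcode. Cox6b1 was at 457 CPM in DR and 484 CPM in control cells, against 1.09 CPM in DR and 1.68 CPM in control cells for Cox6b2. Cox7a2 was at 375 CPM in DR and 406 CPM in control cells and the related supercomplex factor gene Cox7a2l at 326 CPM in DR and 323 CPM in control cells, against 0.607 CPM in DR and 0.707 CPM in control cells for the muscle form Cox7a1. Cox7b was at 331 CPM in DR and 364 CPM in control cells, and Cox7b2 had no UMI in any barcode, nor had Ndufa4l2. Cox6a1 was at 291 CPM in DR and 333 CPM in control cells (log2 ratio -0.19), the largest ratio either way among the nuclear complex IV genes past the floor; Cox5b and Cox7b (-0.14 each) and Cox7c (-0.13) leaned the same way.

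The muscle form Cox6a2 was an exception to this low background. It was at 6.88 CPM in DR and 5.74 CPM in control NK-like cells, from 170 UMIs in DR and 195 UMIs in control cells, and these UMIs were gathered in few cells. Cells with at least 1 UMI were 1.87% of DR and 1.54% of control NK-like cells. At least 3 UMIs, a limit set after the values were seen, occurred in 12 DR and 22 control cells, which held 51.2% of the Cox6a2 UMIs in DR and 73.3% in control cells, with up to 29 UMIs in a single DR cell. Over both libraries there were 2.55 Cox6a2 UMIs per positive cell, against a median of 1.09 for the 1492 genes within 1.5-fold of its level, of which 21 lay at or above it. No B-like cell had one, in 438 DR cells (which allows a share of up to 0.685%) and 122 control cells (up to 2.46%), limits that apply to cells with a captured UMI and not to cells expressing the gene. The NK receptor gene Ncr1 was at 842 CPM in the DR and 1003 CPM in the control cells with 3 or more Cox6a2 UMIs. In NK-like cells with no Cox6a2 UMI it was at 1053 CPM in DR and 1224 CPM in control cells. Cells with 3 or more had median depths of 9370 (DR) and 9703 UMIs (control), against 5333 and 7095.5 UMIs with none. Tcf4, known from plasmacytoid dendritic cells, was at 55.1 CPM in the DR cells with 3 or more and 70.6 CPM in those with none. In control cells it was at 78.1 CPM and 60.1 CPM. The levels with 3 or more rest on 7 DR and 18 control Tcf4 UMIs. Bst2 was at 31.5 CPM with 3 or more and 42.5 CPM with none in DR, and at 39.1 CPM and 46.0 CPM in control. Siglech had no UMI in any NK-like cell. Outside NK-like cells Cox6a2 was at 66.0 CPM in 63 DR cells of an unnamed myeloid and erythroid marker cluster with Siglech among its leading genes, all of it in 4 cells, and at 13.1 CPM in DR and 24.0 CPM in control cells of the unnamed Batf3 and Cd3d cluster.

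Complex V gave a flat pattern as well. Atp5e, the epsilon subunit of the catalytic head, was at 802 CPM in DR and 851 CPM in control NK-like cells. Atp5h, the d subunit of the stalk, was at 734 CPM in DR and 749.9 CPM in control cells, and Atp5l, the membrane g subunit, at 554 CPM in DR and 565 CPM in control cells. Atp5md (log2 ratio -0.19), Atp5g3 (-0.18) and Atp5k (-0.13) had the largest ratios. Atp5g1, Atp5g2 and Atp5g3 encode the same mature c subunit of the rotor from separate genes, and did not lean the same way: Atp5g1 was at 250.2 CPM in DR and 231 CPM in control cells (0.11), Atp5g2 at 487 CPM in DR and 457 CPM in control cells (0.092), and Atp5g3 at 193 CPM in DR and 219.6 CPM in control cells.

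Among the assembly factors, Sdhaf1, which helps to insert iron-sulfur clusters into Sdhb, had the most positive ratio of the nuclear genes past the floor, 34.5 CPM in DR and 27.9 CPM in control NK-like cells (log2 ratio 0.31, interval 0.17 to 0.44). It crossed the fold under both other scalings, at 0.36 and 0.37. Ndufaf2 was at 23.7 CPM in DR and 27.1 CPM in control cells (-0.19) and Ndufaf7 at 32.4 CPM in DR and 30.1 CPM in control cells (0.11). Ndufaf8 (-0.031), Sdhaf2 (-0.069) and Sdhaf4 (0.0078) lay near 0.

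**Figure D3:**
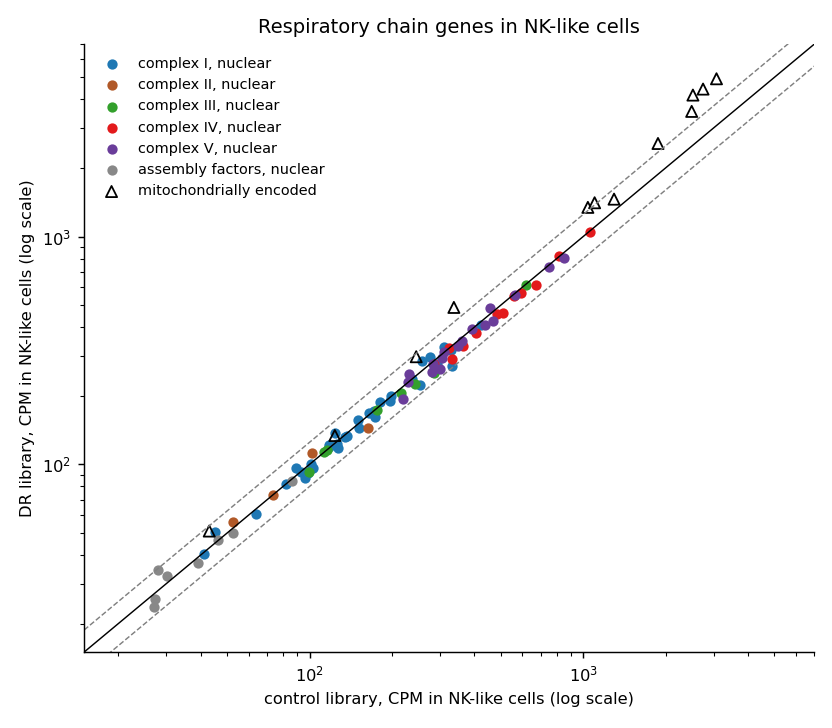
Level of each respiratory chain gene past the floor in NK-like cells, DR (vertical) against control (horizontal), in CPM on log scales; filled points are nuclear genes coloured by complex and open triangles are mitochondrially encoded genes. The solid line marks equal levels and the dashed lines the limits of 25% higher and 20% lower; 0 of 85 nuclear points lie outside the dashed lines and 8 of 12 triangles lie above them.

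The promoters of the nuclear genes are shown for 3 of them because each carries 1 of the motifs by which this gene class is known to be co-regulated. RefSeq promoter windows (GRCm38.p6, 250 bases before to 50 bases after the start) matched 80 of the 97 nuclear genes. The window matched to Ndufa1 (chrX:37191189-37191488, minus strand) lies past the end of that plus-strand gene and is not its promoter. It held none of the motifs but is counted among the 80 genes and the 32 complex I genes below. Both strands were searched for NRF1 (GCGC, any base, then TGCGC), CCGGAAGT (the ETS family, which includes GABP) and AAGATGGCG (YY1), none of which contains another. Capitals mark the motif named on each line; the Atp5h and Cox8a matches are on the reverse strand of the window, so that their capitals read as the reverse complement of the motif, and the Atp5h window also holds an ETS match that is left in lower case.
Atp5h, NRF1, chr11:115419870-115420169, minus strand: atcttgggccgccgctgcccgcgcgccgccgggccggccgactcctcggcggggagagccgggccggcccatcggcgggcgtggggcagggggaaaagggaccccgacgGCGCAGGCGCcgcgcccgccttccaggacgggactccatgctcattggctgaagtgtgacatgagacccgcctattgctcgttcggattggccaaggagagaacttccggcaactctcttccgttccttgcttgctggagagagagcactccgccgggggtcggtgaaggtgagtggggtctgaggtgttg
Cox8a, ETS, chr19:7217567-7217866, minus strand: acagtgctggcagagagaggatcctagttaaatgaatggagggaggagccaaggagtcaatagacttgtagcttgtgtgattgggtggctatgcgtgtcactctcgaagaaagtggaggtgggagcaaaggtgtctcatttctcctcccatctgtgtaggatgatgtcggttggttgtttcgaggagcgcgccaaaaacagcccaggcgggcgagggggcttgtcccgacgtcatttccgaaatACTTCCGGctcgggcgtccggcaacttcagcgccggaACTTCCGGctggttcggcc
Atp5j2, YY1, chr5:145191492-145191791, minus strand: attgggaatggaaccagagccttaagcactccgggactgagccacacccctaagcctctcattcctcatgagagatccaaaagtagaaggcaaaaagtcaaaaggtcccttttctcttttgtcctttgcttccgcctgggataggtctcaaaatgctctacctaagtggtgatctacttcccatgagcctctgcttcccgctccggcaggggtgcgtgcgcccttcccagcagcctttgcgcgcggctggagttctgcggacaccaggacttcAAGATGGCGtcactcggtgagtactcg
The NRF1 motif was present in 26.3% of the member genes and 5.19% of all 27025 genes with a window, the ETS motif in 6.25% and 4.31%, and the YY1 motif in 10.0% and 1.64%. By complex, the NRF1 motif was found in 6 of 15 complex V genes, 7 of 32 complex I genes, 2 of 3 complex II genes, 1 of 5 complex III genes, 1 of 14 complex IV genes and 4 of 11 assembly factors. These shares describe letters in the windows and say nothing of binding. Of the 13 nuclear regulators, 9 passed the floor with their own transcripts in NK-like cells, and 0 were higher and 0 lower in the DR library. Among all genes tested 3.30% were higher and 8.13% lower, so counts of 0 among so few genes are near these shares. The regulators' median was -0.15, against -0.062 over all genes. Yy1 was at 159 CPM in DR and 184 CPM in control cells (log2 ratio -0.21), Gabpa, the DNA-binding subunit of GABP, at 26.2 CPM in DR and 31.3 CPM in control cells (-0.26), and its partner Gabpb1 at 23.0 CPM in DR and 26.7 CPM in control cells (-0.21).

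Only 8 of 25 listed genes that copy, transcribe and process mitochondrial DNA and RNA passed the floor, and the others had no call. Top1mt, among those under the floor, was lower in the DR library and is described under Other observations. Of the 8 genes past the floor, 0 were higher and 0 lower in DR NK-like cells (median -0.025, against -0.062 over all genes). Among all genes tested 3.30% were higher and 8.13% lower, so counts of 0 in so short a list are near these shares. Slirp, which stabilises mitochondrial messages together with Lrpprc, was at 53.7 CPM in DR and 62.0 CPM in control cells (log2 ratio -0.21). Counts were likewise 0 higher and 0 lower for 18 other assembly factors and electron carriers (median 0.0033), 16 citric acid cycle genes (-0.012), 9 carriers and channels (-0.013), 18 import, chaperone and protease genes (-0.062) and 6 antioxidant genes (0.062). The largest ratios named in these lists were 0.27 for Ecsit, a complex I assembly factor (25.5 CPM in DR and 21.2 CPM in control cells), and -0.30 for Glrx5, an iron-sulfur cluster glutaredoxin (57.5 CPM in DR and 71.0 CPM in control cells).

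The same contrast was read in the other cell classes of the libraries. In ILC1-like cells, tissue-resident relatives of NK cells, the mitochondrial genes summed to 28995 CPM in the DR library and 19582 CPM in the control library (log2 ratio 0.57, interval 0.55 to 0.58). Of 13 mitochondrial genes 9 were higher and 0 lower, where 6.99% of all genes were higher and 12.7% lower. In B-like cells the sums were 38645 CPM in DR and 27952 CPM in control cells (0.47, interval 0.45 to 0.48), and the ratio was 0.29 when only cells with at most 5% mitochondrial UMIs were kept. There 8 of 13 were higher and 1, mt-Nd6, was lower with an interval that holds 0 (-0.89 to 0.058), where 9.94% of all genes were higher and 15.2% lower. The order of the genes was broadly kept: mt-Co2, mt-Atp6 and mt-Co3 had the 3 largest ratios in all 3 classes (0.77, 0.71 and 0.68 in ILC1-like cells, and 0.60, 0.57 and 0.61 in B-like cells), and mt-Nd4 stayed at 0.18 in ILC1-like and 0.16 in B-like cells. mt-Nd5 differed in sign, at 0.27 in NK-like, 0.11 in ILC1-like and -0.10 in B-like cells, and only the first interval left out 0. The 4 control T-like cells allow no comparison between libraries.

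**Figure D4:**
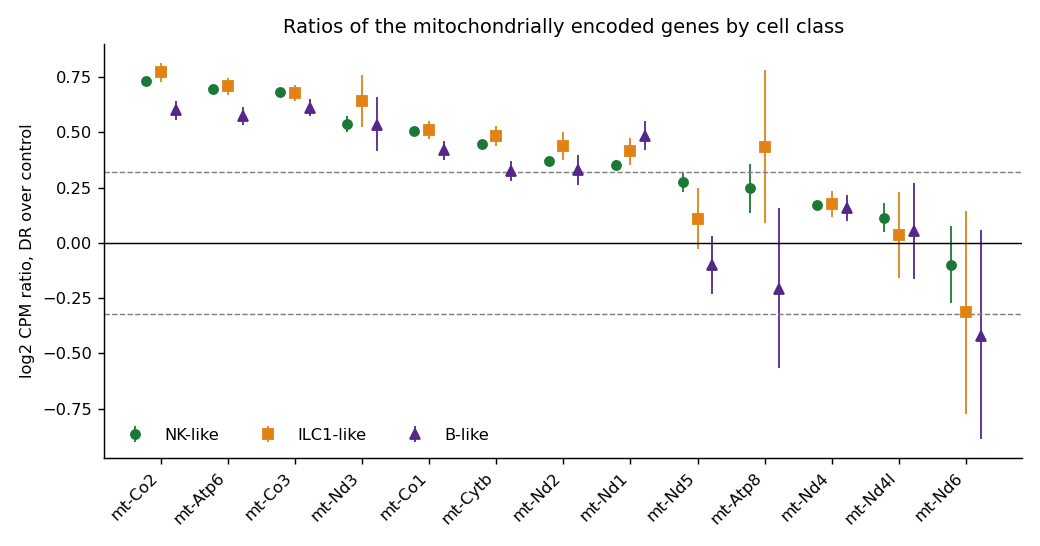
log2 ratio of DR over control for each mitochondrially encoded gene in NK-like (circles), ILC1-like (squares) and B-like (triangles) cells, ordered by the ratio in NK-like cells. Whiskers are 95% counting intervals and dashed lines mark 25% higher and 20% lower; mt-Co2, mt-Atp6 and mt-Co3 stand at 0.57 or above in each class, and mt-Nd4, mt-Nd4l and mt-Nd6 at 0.18 or below.

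Nuclear genes in ILC1-like cells summed to 20112 CPM in the DR library and 21849.9 CPM in the control library (log2 ratio -0.12, interval -0.14 to -0.10). Of 86 genes past the floor 0 were higher and 9 lower, a lower share than the 12.7% of all genes, with a median of -0.14 against -0.058 over all genes. The sum was -0.063 when CPM left out mitochondrial and ribosomal protein genes and -0.062 under median-of-ratios scaling. Of the 9, Ndufa3 had the largest ratio, at 247 CPM in DR and 336 CPM in control cells (-0.44, interval -0.58 to -0.30), which also had the most negative ratio in NK-like cells. Sdhb was at 105 CPM in DR and 141 CPM in control cells (-0.42), Uqcr11, a small complex III subunit, at 153 CPM in DR and 199 CPM in control cells (-0.38), and Ndufaf3, a complex I assembly factor, at 38.8 CPM in DR and 52.0 CPM in control cells (-0.42). In B-like cells the nuclear sums were 16952 CPM in DR and 16403 CPM in control cells (0.047, and 0.075 or 0.078 under the other scalings). There 5 of 84 genes were higher and 3 lower, against 9.94% and 15.2% of all genes. Ndufs1, the iron-sulfur core subunit of complex I, was at 40.1 CPM in DR and 23.6 CPM in control B-like cells (0.77, interval 0.22 to 1.36), a wide interval from 122 control cells.

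Within each library, chain transcripts from mitochondrial DNA were higher, and those from the nucleus lower, in B-like than in NK-like cells. In the DR library 12 of 13 mitochondrial genes were higher in B-like than in NK-like cells and 0 lower, where 18.1% of all genes were higher and 45.7% lower. In the control library 13 of 13 were higher and 0 lower, where 19.0% were higher and 48.8% lower. mt-Cytb was at 4743 CPM in B-like and 2561 CPM in NK-like cells of the DR library (log2 ratio 0.89), and at 3787 CPM in B-like and 1876 CPM in NK-like cells of the control library (1.01). Of 85 nuclear genes 36 were lower and 4 higher in the DR library, and 50 lower and 3 higher in the control library. Their medians, -0.28 and -0.40, lay near those of all genes, -0.26 and -0.30, so the lower nuclear levels were close to the background of this comparison. Ribosomal protein genes took 32.8% of UMIs in DR and 32.6% in control B-like cells.

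Single nuclear genes departed from that background. Atp5h was at 383 CPM in B-like and 734 CPM in NK-like cells of the DR library (log2 ratio -0.94), and at 377 CPM in B-like and 749.9 CPM in NK-like cells of the control library (-0.99). Ndufa1 gave -0.78 in the DR library and -1.005 in the control library. Against these, the assembly factors Sdhaf1 and Ndufaf4 were higher in B-like cells: Sdhaf1 was at 81.3 CPM in B-like and 34.5 CPM in NK-like cells of the DR library (1.24), and at 53.6 CPM in B-like and 27.9 CPM in NK-like cells of the control library (0.94). Ndufaf4 was at 47.2 CPM in B-like and 25.6 CPM in NK-like cells of the DR library (0.89), and at 52.9 CPM in B-like and 27.2 CPM in NK-like cells of the control library (0.96). These genes, like Cox7a2l below, are named after their values were seen.

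T-like cells of the DR library differed from NK-like cells in the same directions. Mitochondrial genes summed to 31378 CPM in T-like cells and 24842 CPM in NK-like cells, with 5 of 13 higher and 0 lower, where 12.7% of all genes were higher and 47.1% lower. Of 85 nuclear genes 33 were lower and 3 higher, with a median of -0.27 against -0.30 over all genes. Cox7a2l, whose protein joins complexes III and IV into supercomplexes, had the largest ratio above 0, at 602 CPM in T-like and 326 CPM in NK-like cells (log2 ratio 0.89, interval 0.81 to 0.96). Its level in B-like cells of the DR library was 382 CPM and in ILC1-like cells 384 CPM. Cox8a was at 615 CPM in T-like and 1044 CPM in NK-like cells (-0.76).

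ILC1-like cells lay closer to NK-like cells. Of 13 mitochondrial genes 4 were higher in ILC1-like than in NK-like cells in the DR library, where 16.1% of all genes were higher, and 2 in the control library, where 16.7% were higher; 0 were lower in either. mt-Cytb was at 3386 CPM in ILC1-like and 2561 CPM in NK-like cells of the DR library (log2 ratio 0.40), and at 2423 CPM in ILC1-like and 1876 CPM in NK-like cells of the control library (0.37). Among nuclear genes 3 were higher and 2 lower in the DR library (11.5% of all genes lower), and 8 higher and 0 lower in the control library (13.4% lower). Sdhaf1 had the largest ratio in both, at 81.4 CPM in ILC1-like and 34.5 CPM in NK-like cells of the DR library (1.24, interval 1.03 to 1.44), and at 74.2 CPM in ILC1-like and 27.9 CPM in NK-like cells of the control library (1.41, interval 1.18 to 1.63). Sdhaf1 was thus lower in NK-like cells than in each of the B-like, ILC1-like and DR T-like cells.

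NK maturation was read from Cd27 and Itgam, since mouse NK cells gain Itgam (CD11b) and then lose Cd27 as they mature. A cell was placed by at least 1 UMI of either gene, so shallow cells can fall into a less positive class. The DR library had 726 Cd27-only, 919 double-positive, 1543 Itgam-only and 932 double-negative NK-like cells, and the control library had 490 Cd27-only, 1031 double-positive, 2195 Itgam-only and 568 double-negative cells. The mitochondrial difference between the libraries was similar in each: the log2 ratio of DR over control was 0.55 in Cd27-only, 0.50 in double-positive, 0.58 in Itgam-only and 0.54 in double-negative cells. Of the mitochondrial genes past the floor 8 were higher in Cd27-only cells, 7 in double-positive, 8 in Itgam-only and 8 in double-negative cells, and 0 were lower in any; the shares of all genes called higher were 5.91%, 4.96%, 4.44% and 5.58%, and of those called lower 12.8%, 10.6%, 8.72% and 12.2%. Nuclear sums gave -0.096, -0.075, -0.021 and -0.052 in the same order.

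Itgam-only cells gave a slightly lower mitochondrial share than Cd27-only cells in both libraries. The median DR cell had 2.53% mitochondrial UMIs in Cd27-only, 2.49% in double-positive, 2.32% in Itgam-only and 2.34% in double-negative cells. In the control library these shares were 1.71%, 1.73%, 1.54% and 1.57%. Double-positive cells thus lay near Cd27-only cells, and double-negative cells near Itgam-only cells. The mitochondrial genes summed to 23679 CPM in Itgam-only and 26359 CPM in Cd27-only NK-like cells of the DR library (log2 ratio -0.15, interval -0.16 to -0.14), and to 15881 CPM in Itgam-only and 18066 CPM in Cd27-only cells of the control library (-0.19, interval -0.20 to -0.17). Every one of the 12 mitochondrial genes past the floor in the DR library and the 13 in the control library lay below 0. They stayed within the fold except for mt-Co1 in the control library, at 2197 CPM in Itgam-only and 2824 CPM in Cd27-only cells (-0.36), where 10.8% of all genes were lower; 5.98% were lower in the DR library. The nuclear sums gave -0.022 in the DR library and -0.098 in the control library, against medians of 0.098 and 0.093 over all genes. When CPM left out mitochondrial and ribosomal protein genes, the mitochondrial ratios were -0.28 in the DR and -0.30 in the control library and the nuclear ones -0.14 and -0.21. Thinning each cell to 3000 UMIs before the gate gave a nuclear ratio of -0.0053 in the DR library. Malat1 was at 35031 CPM in Itgam-only and 25087 CPM in Cd27-only cells of the DR library, and at 34671 CPM in Itgam-only and 22798 CPM in Cd27-only cells of the control library. Ribosomal protein genes took 19.1% of UMIs in Itgam-only and 25.2% in Cd27-only cells of the DR library, and 17.2% in Itgam-only and 23.4% in Cd27-only cells of the control library. Median depth was 5023 UMIs in Itgam-only and 6437 UMIs in Cd27-only cells of the DR library. In the control library it was 6712 and 8569 UMIs. Double-positive cells had a median of 6495 UMIs in DR and 8471 UMIs in control, and double-negative cells 4689 and 6256 UMIs. Over all NK-like cells the mitochondrial share also varied with depth. It was 2.37% in DR and 1.47% in control cells of 5000 to 6000 UMIs. In cells of 8000 to 10000 UMIs it was 2.69% and 1.71%, and under 3000 UMIs 3.06% and 2.75%. The part of these measures in the stage ratios was not tested.

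The 3 nuclear genes with the largest difference between these stages, averaged over the libraries, were Ndufaf4, Atp5g2 and Atp5g3. Atp5g2 was at 438 CPM in Itgam-only and 565 CPM in Cd27-only cells of the DR library (log2 ratio -0.37), and at 401 CPM in Itgam-only and 552 CPM in Cd27-only cells of the control library (-0.46), past the fold in both. Atp5g3 was at 179 CPM in Itgam-only and 222 CPM in Cd27-only cells of the DR library (-0.31), and at 199 CPM in Itgam-only and 273 CPM in Cd27-only cells of the control library (-0.46). Ndufaf4 was at 23.2 CPM in Itgam-only and 26.9 CPM in Cd27-only cells of the DR library (-0.21), and at 24.3 CPM in Itgam-only and 38.3 CPM in Cd27-only cells of the control library (-0.66). The third c subunit gene, Atp5g1, averaged -0.12, so the genes for this subunit shared the sign. Of 85 nuclear genes 2 were lower in the DR library and 5 in the control library, and 0 were higher in either. Of all genes 5.98% were lower and 14.3% higher in the DR library, and 10.8% lower and 19.4% higher in the control library.

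**Figure D5:**
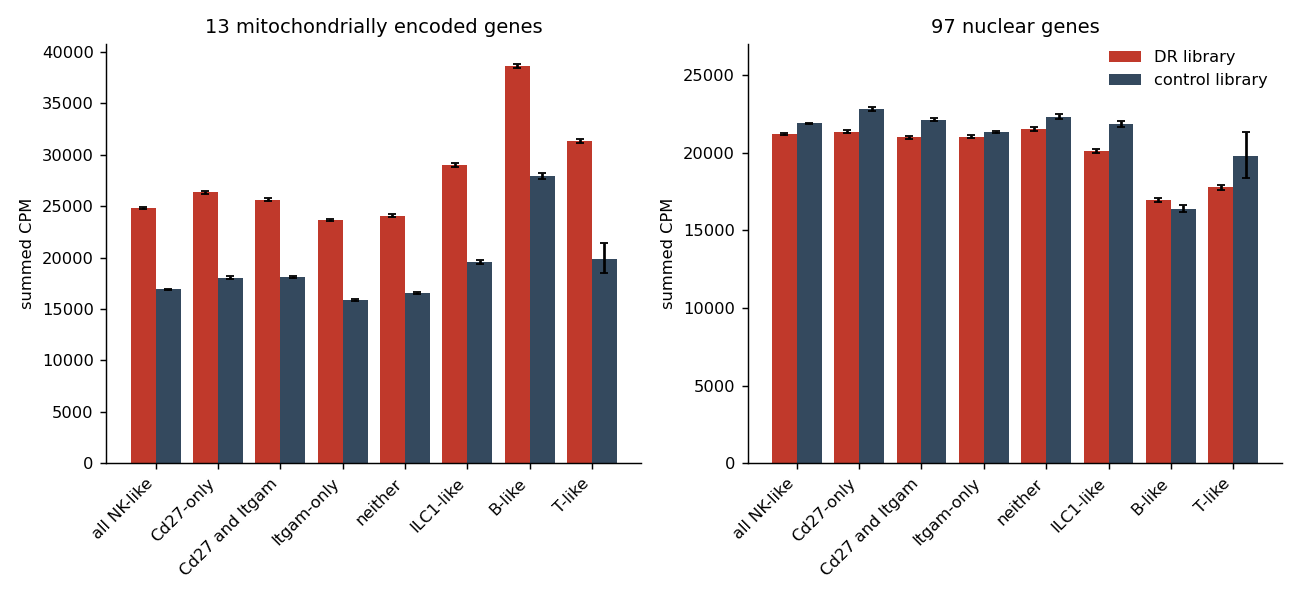
Summed level of the 13 mitochondrially encoded genes (left) and the 97 nuclear genes (right) in CPM, for all NK-like cells, their Cd27 and Itgam stages, and ILC1-like, B-like and T-like cells, with DR (red) left of control (dark). Whiskers are 95% Poisson intervals, wide for the 4 control T-like cells, which allow no comparison between libraries. In every other class the mitochondrial sum is higher in DR. The nuclear sum is lowest in B-like cells (16952 CPM in DR, 16403 CPM in control).

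Cycling NK-like cells, with at least 2 UMIs over a set of cell cycle genes, had a higher summed level of nuclear chain genes than other NK-like cells in both libraries. There were 96 such cells in the DR library and 226 in the control library. The nuclear genes summed to 23966 CPM in cycling and 21045 CPM in other cells of the DR library (log2 ratio 0.19, interval 0.17 to 0.20), and to 24144 CPM in cycling and 21645 CPM in other cells of the control library (0.16, interval 0.15 to 0.17). Of 85 nuclear genes 23 were higher in the DR library, where 19.2% of all genes were higher, and 14 in the control library, where 15.5% were higher. There were 2 lower in the DR library and 1 in the control library, where 33.5% and 24.2% of all genes were lower, and the nuclear genes' medians were 0.16 and 0.15 against -0.13 and -0.099 over all genes. Atp5g2 (0.65 in the DR and 0.61 in the control library), Atp5g3 (0.71 and 0.49), Ndufab1, the mitochondrial acyl carrier protein gene (0.60 and 0.67), and Ndufv1 (0.70 and 0.41) were higher in both. The 8 assembly factors past the floor had medians of -0.20 in the DR and -0.11 in the control library, near those of all genes. The mitochondrial sum gave -0.018 in the DR library and 0.11 in the control library. Median depth was 7731.5 UMIs in cycling and 5327 UMIs in other cells of the DR library, and 11254.5 UMIs in cycling and 7003.5 UMIs in other cells of the control library. Deeper cells meet this gate more easily, because it counts UMIs. Over all NK-like cells of 15000 UMIs or more, nuclear chain genes took 2.51% of UMIs in DR and 2.50% in control cells. Between 10000 and 15000 UMIs they took 2.15% and 2.21%. Malat1 was at 17632 CPM in cycling and 31437 CPM in other cells of the DR library, and at 18435 CPM in cycling and 31797 CPM in other cells of the control library. Ribosomal protein genes took 25.8% of UMIs in cycling and 21.5% in other cells of the DR library, and 21.6% in cycling and 19.2% in other cells of the control library. The part of these measures in the ratios was not tested.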

How the data were processed

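Droplet 3′ libraries (10x Genomics, per the labels' protocols) were deposited as whole-number UMI counts per gene and barcode by the authors, not normalized. The matrix headers name Cell Ranger 5.0.1, and mm10 and Cell Ranger 2.1.1 stand in the submitters' processing notes; the files do not settle which applies. Free RNA could not be estimated, as no barcode held under 501 UMIs.

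Barcodes with under 500 genes or over 10% of UMIs from mitochondrial genes were dropped. Doublets were scored against 2 simulated doublets per cell, and the top scores were removed down to 0.8% per 1000 cells (328 DR and 247 control cells). Both libraries were clustered together on 2000 variable genes, without the genes reported here, with 30 components, 15 neighbours and Leiden resolution 0.6, into 16 clusters. Clusters were named from marker lists, at 20 CPM and 25% of the highest cluster, needing 3 markers and 50% of a list. A cluster stayed unnamed when its leading genes held more markers of another lineage than of its own. This left out the Batf3 and Cd3d cluster and a shallow cluster of 104 DR and 217 control cells (median 1427 UMIs). The shallow cluster met these limits for 10 NK markers and had Hba-a1 among its leading genes.

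Counts were summed per library and class and expressed as CPM of all UMIs. Interval coverage was checked on simulated counts. No test, p-value or set test was used. Replicate origin is not given in the sources used here. The members and lists were chosen with earlier results of these data known. Named nuclear genes were, per complex, the 3 at the highest level, the 3 with the largest absolute ratio between libraries at 20 CPM or more, the 3 with the largest stage ratio, and isoform families. Promoter and coding sequences came from RefSeq (GRCm38.p6) and GENCODE M21. Python 3.11.15, numpy 2.4.6, scipy 1.17.1, scikit-learn 1.9.0 and leidenalg 0.10.2 were used.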

Additional observations from a re-analysis of the deposited data

Results flagged for a closer look

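Some nuclear genes and the nuclear sum stood on opposite sides of 0 in different cell classes under the same contrast, with intervals that left out 0 on both sides. The differences between classes were not tested, and with 1 library per group they have no replicate check. Atp5b, the catalytic beta subunit of the ATP synthase, gave a log2 ratio (DR over control) of -0.20 in ILC1-like cells and 0.15 in B-like cells. Cox6c, a complex IV subunit, gave -0.06 in NK-like cells, -0.16 in ILC1-like cells and 0.15 in B-like cells. The 97 nuclear genes summed gave -0.047 in NK-like cells and 0.047 in B-like cells. That contrast of signs is lost under the other scalings: with CPM outside mitochondrial and ribosomal protein genes the sums were 0.011 in NK-like and 0.075 in B-like cells, and under median-of-ratios scaling 0.016 and 0.078.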

How the results depend on the processing

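Values are log2 ratios of DR over control unless a stage ratio (Itgam-only over Cd27-only) is named; the cause of each shift was not tested. The mitochondrial sum in NK-like cells stayed above 0 under all 13 alternatives, and 8 or 9 mitochondrial genes were higher and 0 lower in all 9 that gave a count. With CPM outside mitochondrial and ribosomal protein genes, the NK-like mitochondrial sum was 0.61 and the nuclear sum reversed to 0.011; ILC1-like cells gave 0.62 and -0.063, B-like cells 0.49 and 0.075, stage ratios were -0.28 (mitochondrial) and -0.14 (nuclear) in the DR library and -0.30 and -0.21 in the control library, and 1 nuclear gene was higher. Median-of-ratios scaling gave 0.62 and a reversed 0.016 in NK-like, 0.62 and -0.062 in ILC1-like and 0.50 and 0.078 in B-like cells, stage ratios of -0.25 and -0.12 in the DR library and -0.28 and -0.19 in the control library, and 1 nuclear gene higher. With at most 5% mitochondrial UMIs the B-like sums were 0.29 and 0.073 and the control mitochondrial stage ratio -0.17; with at most 20% the B-like mitochondrial sum was 0.44. With doublets kept, the mitochondrial sums were 0.54 in ILC1-like and 0.49 in B-like cells. In NK-like cells the mitochondrial and nuclear sums were 0.59 and -0.062 by single-cell gating (1 nuclear gene lower), 0.57 and -0.037 as means of per-cell shares, 0.54 and -0.062 with the stages weighted equally, 0.52 and -0.0084 with depth bins weighted equally, and 0.60 and -0.033 without cells holding UMIs of other lineages. Alternatives added after seeing the data gave 0.57 and -0.052 with the Batf3 and Cd3d cluster counted as NK-like, and a nuclear sum of -0.089 with NK-like clusters weighted equally. At a floor of 5 CPM 1 nuclear gene was higher (Sdhaf3) and 1 lower (Ndufaf5). With cells thinned to 3000 UMIs before the stage gate, stage ratios were -0.13 and -0.0053 in the DR library and -0.17 and -0.086 in the control library. No paired analysis was possible because each group had 1 library, and no replicate could be left out.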

Other observations

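Some genes around the chain stood past the fold between NK stages, and those given here were named after their values were seen. Slc25a4, which exchanges ADP and ATP across the inner membrane, was at 42.2 CPM in Itgam-only and 88.3 CPM in Cd27-only NK-like cells of the DR library (log2 ratio -1.06), and at 42.7 CPM in Itgam-only and 108 CPM in Cd27-only cells of the control library (-1.34). The chaperone gene Hspe1 was at 163 CPM in Itgam-only and 224 CPM in Cd27-only cells of the DR library (-0.46), and at 162 CPM in Itgam-only and 267 CPM in Cd27-only cells of the control library (-0.72). Of the 18 import, chaperone and protease genes, 7 were lower in the control library and 1 of the 17 past the floor in the DR library, where 10.8% of all genes in the control and 5.98% in the DR library were lower. Top1mt, the topoisomerase of mitochondrial DNA, went the other way, at 12.5 CPM in Itgam-only and 4.61 CPM in Cd27-only cells of the DR library, under the floor, and at 35.0 CPM in Itgam-only and 7.54 CPM in Cd27-only cells of the control library (2.21). Over all NK-like cells Top1mt was at 8.13 CPM in the DR and 22.9 CPM in the control library. It is among the leading genes of the Cx3cr1 and Klrg1 cluster that held 389 DR and 2215 control cells.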
